A study of Mus musculus with 5 samples.

Results

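The genes described here encode receptor chains for interleukins, interferons and related cytokines. There were 37 of them, named gene by gene, among 21887 protein-coding genes of the mouse annotation. Each was examined through PU.1 binding measured in its locus, that is, the gene's span in the mm10 genome with 10 kb added on each side. Of the 37 genes, 32 had at least 1 window with enough reads to test. They were compared with 15001 testable protein-coding loci and, site by site, 179 of 60527 binding sites lay in their loci.

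The study used chromatin immunoprecipitation with sequencing (ChIP-seq) to map the transcription factor PU.1 in plasmacytoid dendritic cells (pDCs), which are specialised in type I interferon production, and in conventional dendritic cells (cDCs), which present antigen to T cells. There were 2 PU.1 libraries of pDCs, 2 PU.1 libraries of cDCs and 1 input library of cDC chromatin that was not precipitated. All 5 came from cells of the strain labelled C56BL/6 that were grown in culture with Flt3L, the cytokine that drives dendritic cell development, and no genotype, age or treatment beyond that culture was given. The design text calls the 2 PU.1 libraries of a cell type biological replicates but does not say whether the cultures or animals were separate, so a p-value measures only the spread between these libraries.

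Interleukin and interferon receptors are assembled from several chains. Most of those described here signal through Janus kinases (JAKs) and STAT transcription factors, often by pairing a ligand-specific chain with a shared chain such as the common gamma chain, gp130 or the common beta chain, whereas the IL-1 receptor family signals through the adaptor MyD88 and the IL-17 receptors through the adaptor encoded by Traf3ip2. PU.1 is an ETS-family factor that binds DNA around the core GGAA, and it can bind together with interferon regulatory factors at composite elements. Binding of PU.1 near a gene is a measurement on chromatin and does not give the level of the receptor.

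The measured quantity was the number of reads in each of 329996 windows of 10 bp, laid out on a grid of 50 bp. Totals over windows were 8099633 and 6896416 for the pDC libraries, 11034858 and 11388554 for the cDC libraries and 2776490 for the input. A read can fall in more than 1 window, so these totals are not sequencing depths. A set of 146 windows with at least 1000 input counts held 74.6% of the input total, against 9.15% to 18.0% in the PU.1 libraries. PU.1 replicates were not copies, with a mean chi-square per window of 3.18 for the pDC pair and 1.44 for the cDC pair. The labels were set against PU.1 signal at marker genes. Of all tested loci, 9.54% were higher and 6.97% lower in pDCs. At the pDC list 4 of 8 tested loci were higher in pDCs and 1 was lower. At the cDC list 4 of 9 were lower in pDCs and none was higher. Summed CPM (counts scaled to library size) over the pDC list was 828 and 646 in pDCs and 461 and 470 in cDCs, and over the cDC list 1041 and 1089 in pDCs and 1239 and 1237 in cDCs. A B cell list was also higher in pDCs at 2 of 6 loci, with summed CPM of 393 and 367 in pDCs and 274 and 275 in cDCs, and its part in the results below was not tested. None of 5 T and NK cell loci passed the edgeR test (1 had an unadjusted p below 0.05, and DESeq2 called 0), macrophage and neutrophil loci were higher in pDCs at 2 and lower at 1 of 7, and 1 of 5 mast cell, erythroid and megakaryocyte loci was lower in pDCs. Klk1, Ncr1, S100a9 and Mcpt4 had no window that was kept for testing.

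Across the receptor genes, 8 of the 32 tested loci (25.0%) differed between pDCs and cDCs, where 16.5% of all loci did. Il23r, Il12rb2, Il21r and Ifnar2 were higher in pDCs, against 9.54% of all loci that were. Il1r1, Il1r2, Il5ra and Ifngr1 were lower in pDCs, against 6.97% of all loci. The other 24 tested loci did not pass the test, and their log2 folds (pDC minus cDC) ran from -0.98 at Il18rap to 0.34 at Il7r. The median log2 fold of the 32 loci was 0.01, and that of all loci was 0.05. A locus was called when its adjusted p was below 0.05 in the quasi-likelihood test of edgeR over all loci. Loci of Il2rg, Il17rb, Il27ra and Osmr held no window at all. The Il9r locus held 1 window, which fell below the filter on low counts.

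**Figure D1:**
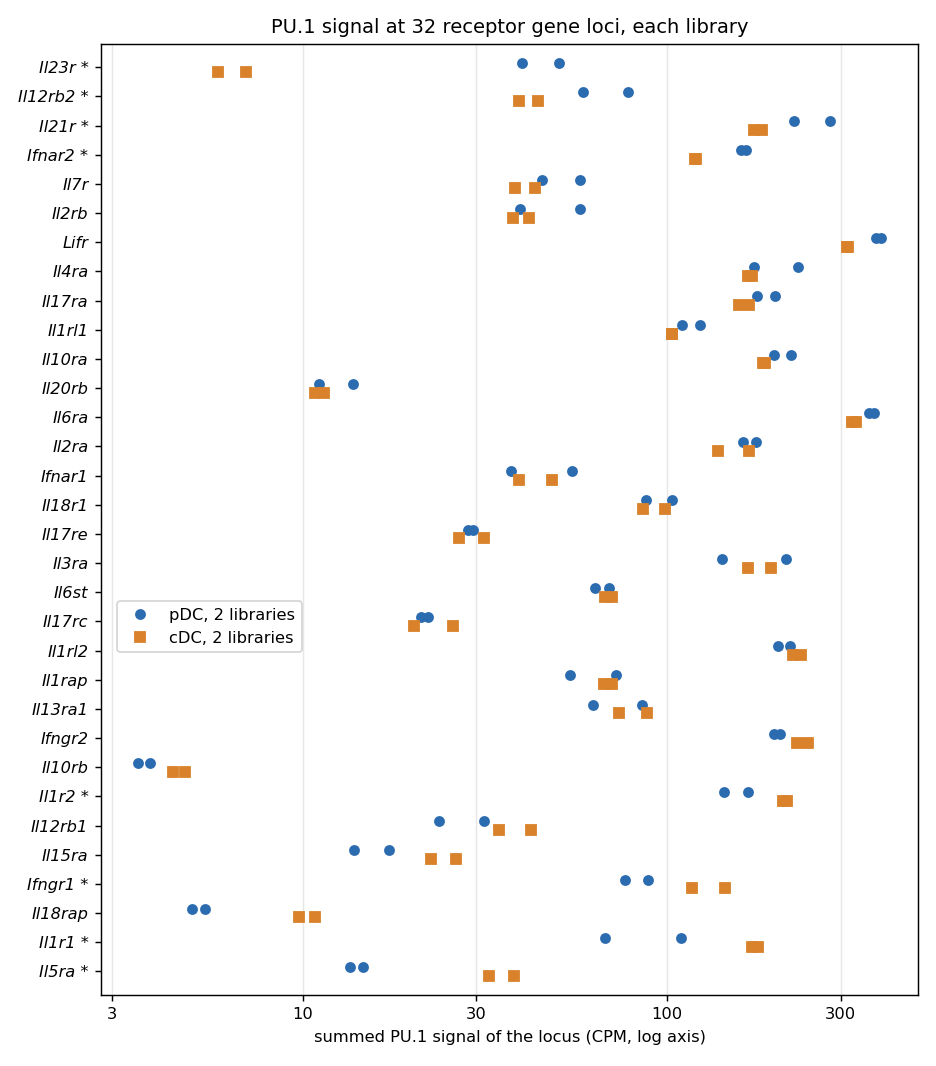
Summed PU.1 signal of each of the 32 tested receptor loci in CPM (log axis), with 1 blue point for each pDC library and 1 orange square for each cDC library, sorted by log2 fold. Asterisks mark the 8 called loci, with Il23r at 50.6 and 39.9 CPM in pDCs against 5.85 and 7.00 CPM in cDCs at the top and Il5ra at 13.5 and 14.6 CPM in pDCs against 38.1 and 32.6 CPM in cDCs at the bottom.

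Site by site, 22 of the 179 sites (12.3%) differed, where 14.6% of all sites did. Of these, 13 were higher in pDCs and 9 were lower in pDCs, against 8.39% and 6.24% of all sites. The 22 sites lay in the loci of 14 genes, and the other 18 tested genes had no called site. The libraries of the 2 cell types did not overlap at 97 sites (54.2%), where this was so at 58.4% of all sites. Both pDC libraries were above both cDC libraries at 48 of the 97 and below them at 49. Site log2 folds ran from -2.31 at Ifngr1 to 4.04 at Il23r, with a median of -0.01 against 0.02 for all sites. A site here is a run of windows no more than 100 bp apart, with its counts summed, and the sites were 10 to 810 bp wide with a median of 210 bp.

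**Figure D2:**
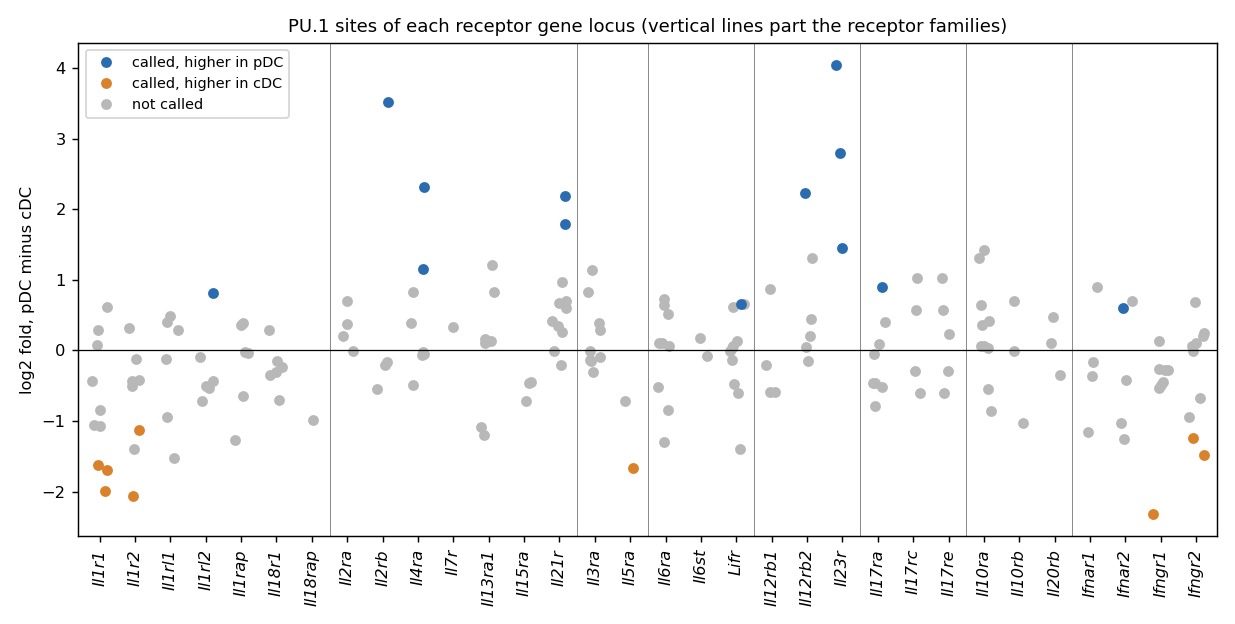
Log2 fold (pDC minus cDC) of each PU.1 site in the receptor loci, 1 point a site, with genes grouped by receptor family and sites shared by 2 loci drawn under each. Blue points are the 13 sites called higher in pDCs, orange points the 9 called lower in pDCs and grey points the sites not called, and Il23r holds the highest value, 4.04.

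The counts of calls depended on single libraries and on the scaling. Without cDC replicate 1 there were 2 receptor loci called where 4.68% of all loci were, without cDC replicate 2 there were 4 where 6.19% were, and without pDC replicate 2 there were 19 where 37.6% were. The called receptor sites numbered 11, 12 and 52 under the same omissions, where 5.36%, 6.61% and 32.5% of all sites were called. The shares over all loci and all sites thus moved in the same direction as the receptor counts. With 1 library of a cell type left out, the fit took its spread from the pair that remained. The mean chi-square was 3.18 for the pDC pair and 1.44 for the cDC pair. A call gained, kept or lost with a library left out, here and below, therefore does not measure the spread within both cell types. Library totals were also used instead of TMM, the trimmed-mean scaling of edgeR used throughout. With them 1 receptor locus was called higher and 4 lower in pDCs, where 16% of all loci were called. At sites, 8 were higher and 13 lower, where 15.2% of all sites were called, and the median log2 fold of all loci moved to -0.08. With scaling on the 146 input-rich windows the median of all loci moved to -0.46 and that of all sites to -0.51. No receptor locus was then called by edgeR (4 had an unadjusted p below 0.05), where 0.700% of all loci were. At sites, 3 were higher and 11 lower in pDCs, where 9.21% of all sites were called. All 8 called receptor loci thus lost their calls under that scaling, and 6 of them (all but Il23r and Il5ra) did at a minimum fold of 1.5. Il12rb2, Il21r and Ifnar2 did with library totals, and Il1r2, Il5ra and Ifnar2 did with flanks of 50 kb. With windows of a mean of at least 30 counts Il12rb2 and Il21r did, and 5 loci kept theirs. Il23r had no value there, so its call could not be tested. Of the 22 called sites, 11 lost their calls at the minimum fold and 11 with scaling on the input-rich windows. With library totals 5 did, namely those of Lifr, Il1rl2, Il17ra and Ifnar2 and the Il23r site outside the span. With windows of a mean of at least 30 counts only 14 of the 22 sites had a value, and those 14 kept their calls. Relative to the median of all loci under scaling on the input-rich windows, Il23r lay at 2.79 and Il1r1 at -1.14, close to their values under the TMM scaling.

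Of the 179 sites, 10 lay at a promoter of a receptor gene, described further on. In all, 104 sites had their strongest window, the window with the highest mean CPM over the 4 PU.1 libraries, inside the span of a receptor gene. Of these 104, 5 were higher and 6 lower in pDCs. Of the 75 sites outside the receptor gene spans, 8 were higher and 3 lower in pDCs. Among all sites, 8.39% were higher and 6.24% lower in pDCs. Only 4 of the 179 sites lay inside the span of another gene, and 8 fell in more than 1 receptor locus, none of them called by edgeR or by DESeq2 (1 of the 4 and 0 of the 8 had an unadjusted p below 0.05). Against the input, at a fold of at least 2, 88 sites (49.2%) were above it in pDCs, where 45.4% of all sites were, and 95 (53.1%) were above it in cDCs, where 48.6% were. The strongest windows held 0 to 6 input counts. Of the 22 called sites, 16 were above input in at least 1 cell type and 6 in neither, and because the input is a single cDC library its precision is that of 1 library. When library sizes left out the input-rich windows, 23 sites were above input in pDCs or cDCs, against 104 with them. No share of all sites is given beside those counts, so they do not show whether the fall is particular to receptor sites. Statements that a single site was above input, here and below, use totals with the input-rich windows in, so they may not hold without them.

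At 10 receptor genes a site overlapped the promoter, taken as 250 bases before to 50 after the start of transcription. These were Il3ra, Il4ra, Il6ra, Il7r, Il12rb2, Il13ra1, Il21r, Ifnar1, Ifngr1 and Ifngr2. None of the 10 promoter sites was called by edgeR or by DESeq2 (1, at Il6ra, had an unadjusted p below 0.05), and their median log2 fold was 0.40. Among all sites edgeR called 14.6% and DESeq2 12.9%, and the median log2 fold was 0.02. With so few promoter sites, their lack of calls does not set them apart from all sites. Promoter sequences from RefSeq on the GRCm38.p6 assembly were found for 31 of the 37 genes, 37 promoters in all. Of the 10 promoter sites, 7 were above input in pDCs and 5 in cDCs, where 45.4% and 48.6% of all sites were. The promoters of 4 genes with a site above input in both cell types are printed 5′ to 3′ on the gene's strand. Every ETS core, GGAA or its complement TTCC, is in capitals. They show where the cores stand at promoters whose PU.1 signal was above input in both. The 4 were picked without a set rule, and all 4 hold cores, unlike the promoters of Il21r and Ifngr1. Mean CPM of the strongest window was 10.3 at the Ifngr1 promoter site, against 10.7 at that of Il7r and 7.85 at that of Il6ra. The printed promoters thus leave out a strong site whose promoter has no core. Il7r lies on the minus strand at chr15:9529827-9530126, Il6ra on the minus strand at chr3:89913147-89913446, Ifnar1 on the plus strand at chr16:91484965-91485264 and Il12rb2 on the minus strand at chr6:67376139-67376438.
Il7r: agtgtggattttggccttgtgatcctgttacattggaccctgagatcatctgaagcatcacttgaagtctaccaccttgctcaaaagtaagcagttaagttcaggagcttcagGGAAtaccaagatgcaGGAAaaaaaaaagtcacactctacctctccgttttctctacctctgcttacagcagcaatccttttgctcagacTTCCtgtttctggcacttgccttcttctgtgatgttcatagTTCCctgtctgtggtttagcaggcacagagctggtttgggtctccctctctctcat
Il6ra: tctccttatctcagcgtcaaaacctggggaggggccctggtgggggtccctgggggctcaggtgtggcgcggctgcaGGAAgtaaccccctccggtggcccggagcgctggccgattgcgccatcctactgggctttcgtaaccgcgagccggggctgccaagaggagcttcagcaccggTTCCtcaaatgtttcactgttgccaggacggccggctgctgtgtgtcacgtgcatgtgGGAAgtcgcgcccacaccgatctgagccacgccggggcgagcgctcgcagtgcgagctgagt
Ifnar1: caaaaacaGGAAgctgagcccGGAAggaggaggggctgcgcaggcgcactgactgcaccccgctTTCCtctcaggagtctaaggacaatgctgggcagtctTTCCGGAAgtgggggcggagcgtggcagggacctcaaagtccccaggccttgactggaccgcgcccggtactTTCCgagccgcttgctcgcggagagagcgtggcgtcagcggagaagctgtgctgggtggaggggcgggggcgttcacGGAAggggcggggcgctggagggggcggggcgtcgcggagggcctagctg
Il12rb2: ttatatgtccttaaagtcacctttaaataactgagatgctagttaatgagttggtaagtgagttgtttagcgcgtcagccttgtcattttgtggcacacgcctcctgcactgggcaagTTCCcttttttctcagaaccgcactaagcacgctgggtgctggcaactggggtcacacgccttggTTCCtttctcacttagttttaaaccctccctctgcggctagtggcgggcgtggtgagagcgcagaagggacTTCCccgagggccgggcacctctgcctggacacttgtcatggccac

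The promoter of Il7r, the IL-7 receptor alpha chain used by developing lymphocytes, held 4 ETS cores. The strongest window of its site began 29 bp before the start and had 106 and 64 counts in pDCs, 91 and 119 in cDCs and 2 in the input. Scaled to library size the pDC libraries had 14.0 and 10.3 CPM and the cDC libraries 8.32 and 10.3 CPM, so the higher cDC library stood level with the lower pDC library. The log2 fold over the site was 0.34 ± 0.21 (SE, adjusted p = 0.326 by edgeR). The Il6ra promoter, with 3 cores, had 80 and 53 counts in pDCs, 61 and 78 in cDCs and 2 in the input, and its site log2 fold was 0.52 ± 0.24 (adjusted p = 0.165 by edgeR). The Ifnar1 promoter held 7 cores, a pair of them back to back, and its strongest window had 38 and 18 counts in pDCs, 44 and 56 in cDCs and 3 in the input. Its site log2 fold was -0.16 ± 0.28 (adjusted p = 0.772 by edgeR). The Il12rb2 promoter, with 3 cores, had 42 and 22 counts in pDCs, 39 and 41 in cDCs and 3 in the input, with a log2 fold of 0.45 ± 0.26 (adjusted p = 0.277 by edgeR).

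Letter matches on both strands were counted in all promoters, 250 bases before to 50 after the start. GGAA was present in 31 of the 37 receptor promoters (83.8%), against 96.0% of 32851 promoters of the annotation. It was present in 8 of the 10 promoters with a site, and the Il21r and Ifngr1 promoters had none within the window. The longer PU.1 form GAGGAAGT was present in 1 receptor promoter, that of Il18rap (2.70%, against 3.20% of all). The composite form GGAANNGAA, of which GGAA is a part, was present in 1, that of Il6st (2.70%, against 8.24% of all). Neither of those 2 promoters overlapped a site.

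Several receptor genes are chromosomal neighbours, and the sites are described by those stretches because neighbouring loci can share windows. The grouping was made after the values were seen. Of all sites, 8.39% were higher and 6.24% lower in pDCs. On chromosome 1, Il1r2, Il1r1, Il1rl2, Il1rl1, Il18r1 and Il18rap stand within 467 kb with 35 sites, 1 of them higher and 5 lower in pDCs. On chromosome 16, Ifnar2, Il10rb, Ifnar1 and Ifngr2 stand within 191 kb with 20 sites, 1 higher and 2 lower in pDCs. Il12rb2 and Il23r on chromosome 6 held 9 sites, 4 higher and none lower in pDCs. Il4ra and Il21r on chromosome 7 held 19 sites, 4 higher and none lower in pDCs. No site was called in the stretch of Il2ra and Il15ra on chromosome 2, with 7 sites, or in that of Il17re and Il17rc on chromosome 6, with 5, by edgeR or by DESeq2 (1 and 0 had an unadjusted p below 0.05).

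The IL-12 and IL-23 receptor chains included the highest locus log2 fold of the receptor genes, at Il23r. Il23r encodes the chain specific for IL-23, Il12rb2 the signalling chain of the IL-12 receptor, and Il12rb1 the chain that both receptors share. Of these 3 loci, 2 were higher in pDCs, where 9.54% of all loci were, and Il12rb1 was not called. Summed over the Il23r locus (span chr6:67422932-67491855), PU.1 counts were 384 and 248 in pDCs, 64 and 81 in cDCs and 33 in the input. Scaled to library size these were 50.6 and 39.9 CPM in pDCs and 5.85 and 7.00 CPM in cDCs. Every pDC value was several times every cDC value, and the difference was 2.81 ± 0.27 on the log2 scale (7.03-fold, SE, adjusted p = 8.74e-05 by edgeR). The span alone gave 3.54 and flanks of 50 kb gave 1.20, both called. Flanks of 50 kb also take in the called site upstream of Il12rb2 described below, so that value is not of Il23r alone.

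All 3 sites of the Il23r locus were higher in pDCs. The strongest difference lay inside the gene at chr6:67476501-67476810, 15.2 kb after the start, where the strongest window held 44 and 25 counts in pDCs, 4 and 5 in cDCs and 1 in the input. The site sum was 235 and 118 in pDCs, 16 and 18 in cDCs and 20 in the input, a log2 fold of 4.04 ± 0.41 (16.4-fold, adjusted p = 0.000457 by edgeR). With totals that include the input-rich windows, the site was above input in pDCs and not in cDCs. The log2 fold of this site ranged from 3.61 to 4.35 over 14 alternative settings and was called in all of them. The site had no value under a further setting, windows of a mean of at least 30 counts.

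A further site in the gene, at chr6:67443001-67443160 and 48.8 kb after the start, had 24 and 20 counts at its strongest window in pDCs, 3 and 6 in cDCs and 4 in the input. Its log2 fold was 2.80 ± 0.49 (adjusted p = 0.00377 by edgeR), and it was called under all 14 alternatives with a value, at 3.45 without cDC replicate 2. This site too had no value with windows of a mean of at least 30 counts, and it was above input in neither cell type. The remaining Il23r site, chr6:67416951-67417110, lay 5.87 kb outside the span with 19 counts in each pDC library and 11 in each cDC library. It is named because it completes the locus and was chosen after its values were seen. Its log2 fold was 1.45 ± 0.42 (adjusted p = 0.0371 by edgeR), and this call was lost without cDC replicate 1 (1.46) or cDC replicate 2 (1.43).

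**Figure D3:**
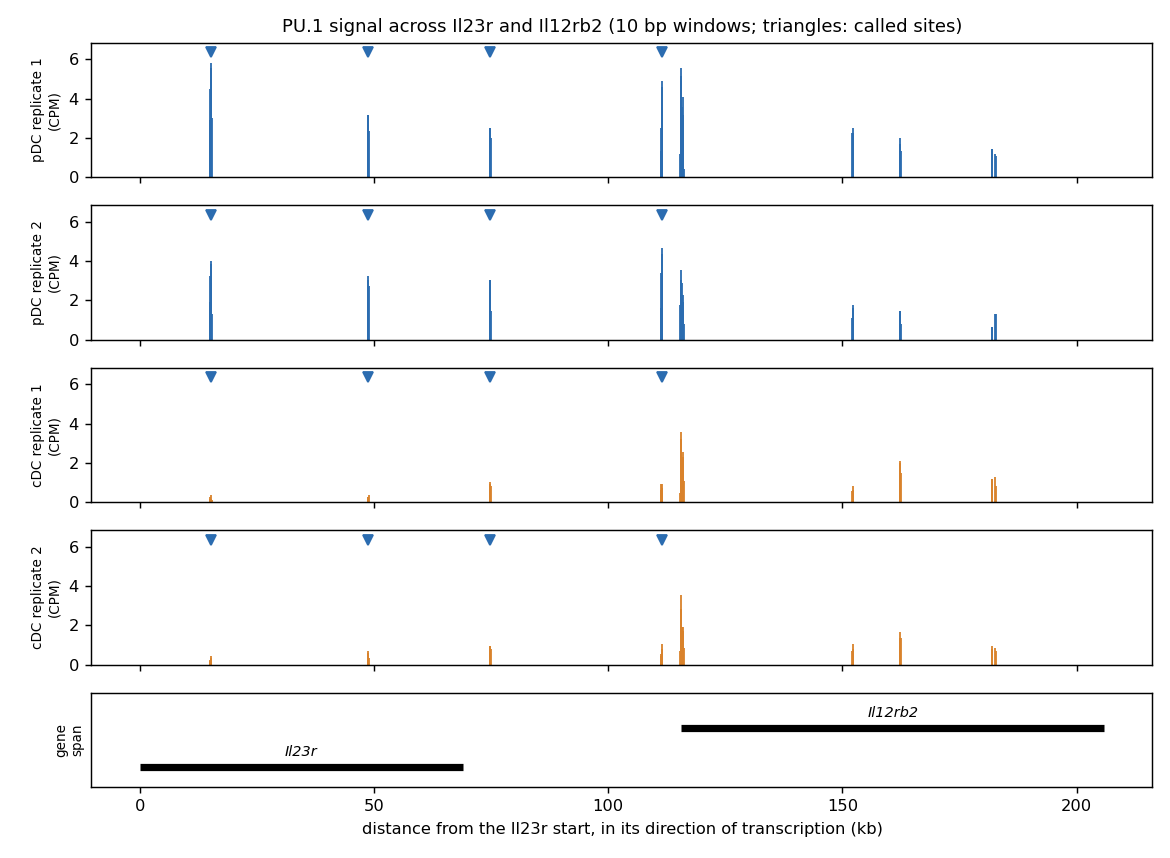
PU.1 signal in CPM of each 10 bp window across Il23r and Il12rb2 in the 2 pDC libraries (blue) and the 2 cDC libraries (orange), by distance in kb from the Il23r start in its direction of transcription, with gene spans as black bars. Triangles mark the 4 called sites, all higher in pDCs, and at the Il23r site 15.2 kb after the start the strongest window stands at 5.80 and 4.02 CPM in pDCs against 0.366 and 0.432 CPM in cDCs.

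At Il12rb2 the locus sum was 77.9 and 58.7 CPM in pDCs and 44.3 and 39.1 CPM in cDCs. The pDC libraries differed by more than the cDC libraries but did not overlap them, and the log2 fold was 0.71 ± 0.19 (adjusted p = 0.0209 by edgeR). The called site of the locus, chr6:67380301-67380560, lay 4.22 kb before the start, beyond the promoter printed above. Its strongest window had 4.88 and 4.66 CPM in pDCs, 0.732 and 1.04 CPM in cDCs and 6 counts in the input. The log2 fold of this site was 2.23 ± 0.35 (adjusted p = 0.00232 by edgeR), and it was above input in neither cell type. Restricted to the gene span, which leaves that upstream site out, the locus gave 0.36 and was not called, and its call was also lost without cDC replicate 1 (0.80) or cDC replicate 2 (0.63). Il12rb1 had 23.6 and 31.5 CPM in pDCs and 34.7 and 42.2 CPM in cDCs. Its log2 fold was -0.48 ± 0.23 (adjusted p = 0.180 by edgeR), and without pDC replicate 2 it was -0.71.

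The IL-1 family receptors, with 7 tested loci, held 2 that were lower in pDCs and none that was higher. Among all loci these shares were 6.97% and 9.54%. Il1r1 encodes the signalling IL-1 receptor and Il1r2 the decoy receptor that binds IL-1 without signalling. The Il1r1 locus (span chr1:40222480-40316201) had 67.8 and 109 CPM in pDCs and 178 and 171 CPM in cDCs. Both pDC values lay below both cDC values, though the pDC replicates stood apart from each other. The log2 fold was -0.98 ± 0.18 (adjusted p = 0.00257 by edgeR), a level 1.98-fold higher in cDCs. It was -0.67 without pDC replicate 1 and -1.37 without pDC replicate 2, and -0.96 without cDC replicate 1 and -1.01 without cDC replicate 2. The Il1r2 locus (span chr1:40084692-40125230) had 143 and 167 CPM in pDCs and 208 and 214 CPM in cDCs. These values did not overlap, and the log2 fold was -0.45 ± 0.13 (adjusted p = 0.0259 by edgeR), a call lost without cDC replicate 1 (-0.47) or cDC replicate 2 (-0.43).

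Of the 10 sites of the Il1r1 locus, 3 were called, all lower in pDCs and all inside the gene. Il1r1 has 2 annotated starts. At chr1:40230451-40230710, 5.53 kb after the first, the strongest window had 1.19 and 2.09 CPM in pDCs and 5.12 and 4.32 CPM in cDCs, with 5 input counts. Its log2 fold was -1.70 ± 0.40 (adjusted p = 0.0145 by edgeR), it was above input in neither cell type, and the call was lost without cDC replicate 1 (-1.45), while without pDC replicate 2 the value was -2.31. At chr1:40294501-40294710, 69.5 kb after the first start and 28.0 kb after the second, the strongest window had 1.05 and 2.25 CPM in pDCs and 4.30 and 5.44 CPM in cDCs, with 1 input count. The log2 fold there was -1.62 ± 0.38 (adjusted p = 0.0139 by edgeR), lost without cDC replicate 2 (-1.49).

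The neighbouring Il1r1 site at chr1:40294901-40295210, chosen after its values were seen, showed how far the pDC replicates could differ. Its strongest window held 5 and 35 counts in the pDC libraries and 120 and 138 in the cDC libraries, or 0.659 and 5.63 CPM in pDCs against 11.0 and 11.9 CPM in cDCs. Both pDC libraries lay below both cDC libraries, and the log2 fold was -1.995 ± 0.53 (adjusted p = 0.0252 by edgeR). It was -1.17 without pDC replicate 1 and -3.89 without pDC replicate 2, and DESeq2 did not call the site (adjusted p = 0.276 by DESeq2).

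At Il1r2 the called site inside the gene, chr1:40087501-40087810, lay 1.56 kb after the start. It had 5.27 and 6.43 CPM at its strongest window in pDCs and 12.3 and 13.2 CPM in cDCs, with 2 input counts. PU.1 was above input in both cell types, and the pDC and cDC libraries did not overlap. The log2 fold was -1.12 ± 0.23 (adjusted p = 0.00841 by edgeR), lost without cDC replicate 2 (-1.02). A weak site 4.72 kb outside the Il1r2 span, chr1:40129951-40130010, was chosen after its values were seen and had 2 and 3 counts in pDCs, 14 and 17 in cDCs and 3 in the input. Its log2 fold of -2.07 ± 0.57 (adjusted p = 0.0287 by edgeR) was called but above input in neither cell type. That call was lost without pDC replicate 1 (-1.78), cDC replicate 1 (-2.14) or cDC replicate 2 (-1.99). The highest Il1r2 site, upstream of the gene at chr1:40081001-40081360, had 12.0 and 15.0 CPM in pDCs and 14.1 and 15.4 CPM in cDCs, values that interleaved (log2 fold -0.12 ± 0.20).

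**Figure D4:**
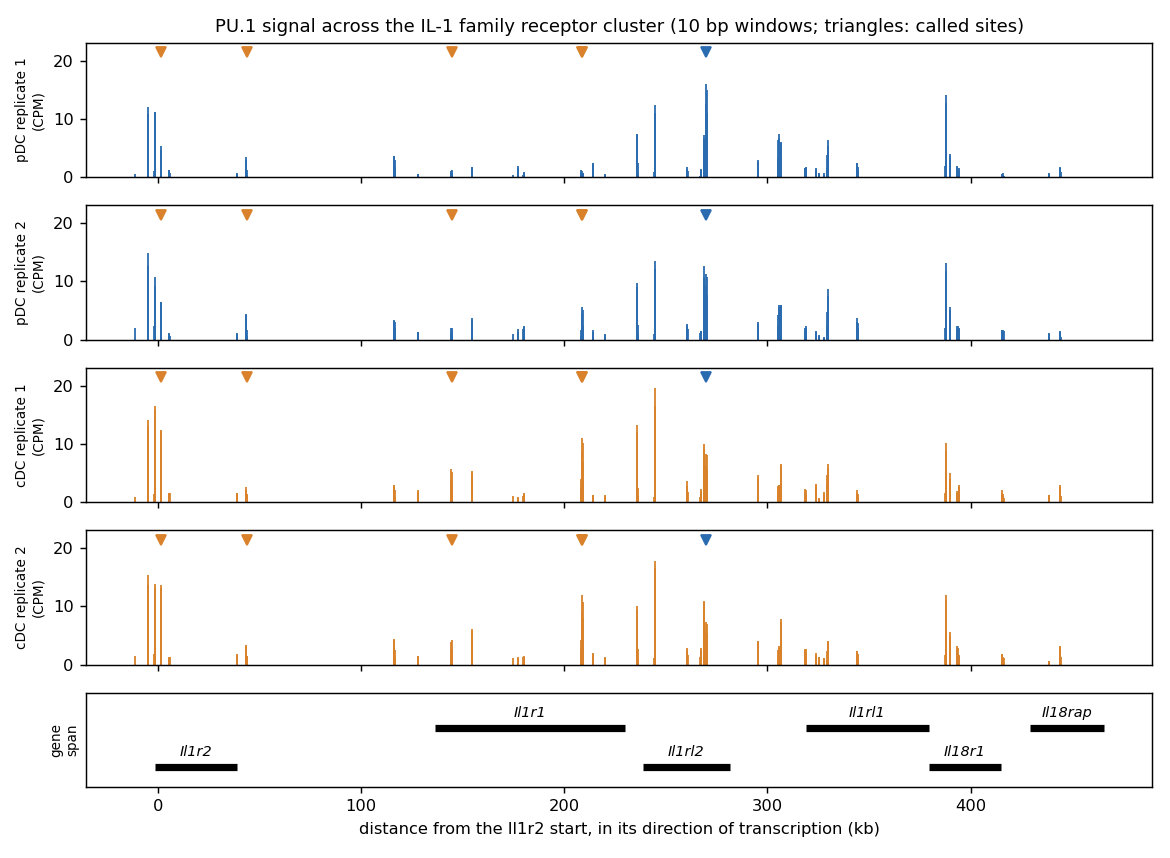
PU.1 signal in CPM of each 10 bp window across the IL-1 family receptor cluster in the 2 pDC libraries (blue) and the 2 cDC libraries (orange), by distance in kb from the Il1r2 start in its direction of transcription, with gene spans as black bars. Triangles mark the 6 called sites, with the 5 lower in pDCs at Il1r2 and Il1r1 and the 1 higher in pDCs at Il1rl2.

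Il1rl2, the receptor for IL-36, had a site on each side of the comparison. At chr1:40355901-40356310, 31.5 kb after the start, the strongest window had 16.1 and 11.3 CPM in pDCs and 8.32 and 7.34 CPM in cDCs, with 4 input counts. Both pDC libraries were higher, with a log2 fold of 0.82 ± 0.21 (adjusted p = 0.0232 by edgeR), lost without cDC replicate 1 (0.86) or cDC replicate 2 (0.77). At chr1:40330501-40330810, the highest site of that locus, there were 12.4 and 13.5 CPM in pDCs and 19.6 and 17.8 CPM in cDCs. The log2 fold there was -0.53 ± 0.19 and did not pass the test (adjusted p = 0.0768 by edgeR), but it did without pDC replicate 1 (-0.49) or pDC replicate 2 (-0.57). The Il1rl2 locus as a whole had a log2 fold of -0.12 ± 0.12.

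Of the other IL-1 family chains, Il18rap, the accessory chain of the IL-18 receptor, had 5.41 and 4.99 CPM in pDCs and 9.79 and 10.8 CPM in cDCs. The libraries did not overlap, but the log2 fold of -0.98 ± 0.36 rested on 4 windows and did not pass the test (adjusted p = 0.0750 by edgeR). Il1rl1, the IL-33 receptor, had a log2 fold of 0.18 ± 0.14, Il18r1, the ligand-binding IL-18 receptor chain, 0.04 ± 0.15, and Il1rap, the accessory chain shared by several receptors of the family, -0.12 ± 0.18. The highest site of the Il1rl1 and Il18r1 loci was the same one, chr1:40473701-40474060, with 14.1 and 13.2 CPM in pDCs and 10.2 and 12.0 CPM in cDCs (log2 fold 0.29 ± 0.20, adjusted p = 0.374 by edgeR).

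Among the receptors that use the common gamma chain, and their relatives, 1 of 7 tested loci was called, where 16.5% of all loci were. Il21r, the IL-21 receptor, had a locus sum of 280 and 223 CPM in pDCs and 174 and 182 CPM in cDCs. Both pDC libraries were above both cDC libraries, with a log2 fold of 0.50 ± 0.13 (adjusted p = 0.0170 by edgeR), lost without cDC replicate 1 (0.46) or cDC replicate 2 (0.53). The Il21r span alone gave 1.35. The strongest of its called sites, chr7:125630401-125630660, lay inside the gene 27.1 kb after the start with 9.63 and 6.76 CPM at the strongest window in pDCs, 1.74 and 1.99 CPM in cDCs and 1 input count. It was above input in pDCs and not in cDCs, with a log2 fold of 2.19 ± 0.30 (4.57-fold, adjusted p = 0.00136 by edgeR). A called site 1.75 kb beyond the gene, chr7:125636101-125636310, also lies in the Gtf3c1 locus and had 5.54 and 3.06 CPM in pDCs and 1.37 and 1.21 CPM in cDCs. Its log2 fold was 1.79 ± 0.40 (adjusted p = 0.0117 by edgeR), lost without cDC replicate 2 (1.57), and it was above input in neither cell type.

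Il4ra, the IL-4 receptor alpha chain, stands next to Il21r, and 2 of its 8 sites were higher in pDCs. At chr7:125583301-125583660, 4.03 kb outside the span, the strongest window had 11.9 and 9.17 CPM in pDCs, 4.39 and 4.66 CPM in cDCs and 3 input counts. Both pDC libraries were higher, with a log2 fold of 1.15 ± 0.24 (adjusted p = 0.00841 by edgeR), lost without cDC replicate 1 (1.11). The single-window site chr7:125584151-125584160 beside it had 24 and 8 counts in pDCs, 5 and 5 in cDCs and 1 in the input, a log2 fold of 2.32 ± 0.61 (adjusted p = 0.0240 by edgeR). It was above input in neither cell type, and its call was lost without pDC replicate 1 (1.51), cDC replicate 1 (2.34) or cDC replicate 2 (2.26). The highest Il4ra site, inside the gene at chr7:125555501-125555860, had 19.5 and 14.6 CPM in pDCs and 18.5 and 17.1 CPM in cDCs. These values interleaved (log2 fold -0.03 ± 0.20). The whole locus had a log2 fold of 0.25 ± 0.14 (adjusted p = 0.248 by edgeR), which became 0.44 without pDC replicate 2.

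**Figure D5:**
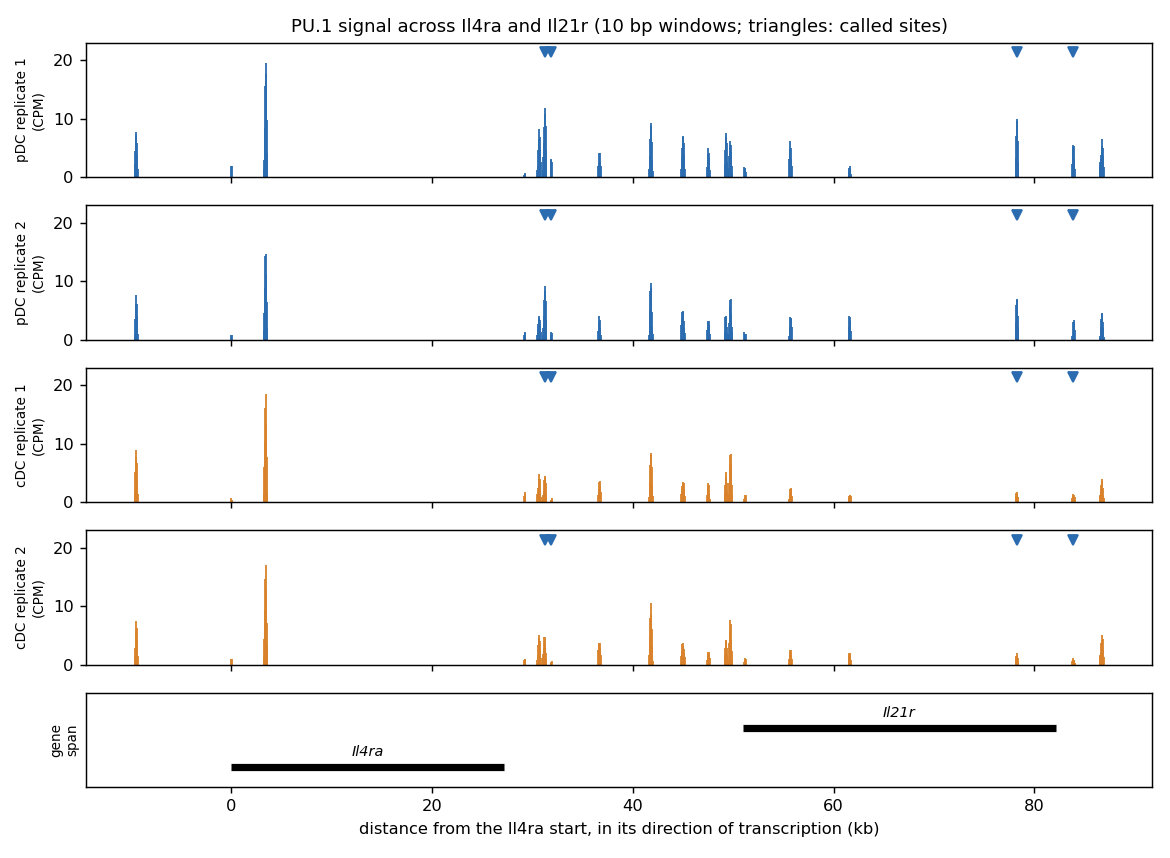
PU.1 signal in CPM of each 10 bp window across Il4ra and Il21r in the 2 pDC libraries (blue) and the 2 cDC libraries (orange), by distance in kb from the Il4ra start in its direction of transcription, with gene spans as black bars. Triangles mark the 4 called sites, all higher in pDCs, while the highest site inside Il4ra has 19.5 and 14.6 CPM in pDCs and 18.5 and 17.1 CPM in cDCs.

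Il2rb, the beta chain shared by the IL-2 and IL-15 receptors, held the site with the second-highest log2 fold of the receptor genes without a call for its locus. The site chr15:78518401-78518610 lay 6.88 kb outside the span, in the C1qtnf6 locus as well, and its strongest window had 59 and 17 counts in pDCs, 5 and 4 in cDCs and 3 in the input. Scaled, that was 7.78 and 2.73 CPM in pDCs and 0.457 and 0.346 CPM in cDCs, so the pDC libraries were far apart but both well above the cDC libraries. The log2 fold was 3.52 ± 0.51 (11.5-fold, adjusted p = 0.00165 by edgeR), at 2.65 without pDC replicate 1 and 4.05 without pDC replicate 2. This site was called under all 14 alternatives with a value and had none with windows of a mean of at least 30 counts. PU.1 was above input there in pDCs and not in cDCs. The highest Il2rb site, chr15:78515901-78516160, had 4.62 and 4.34 CPM in pDCs and 6.86 and 6.39 CPM in cDCs (log2 fold -0.55 ± 0.26, adjusted p = 0.186 by edgeR). The locus, with both, had 57.9 and 39.6 CPM in pDCs and 41.9 and 37.8 CPM in cDCs. Its log2 fold was 0.29 ± 0.22, and without pDC replicate 2 it was 0.54.

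The remaining chains of this group were not called. Il2ra, the high-affinity IL-2 receptor alpha chain, had 176 and 162 CPM in pDCs and 168 and 138 CPM in cDCs, a log2 fold of 0.14 ± 0.13. Il15ra, which presents IL-15 to neighbouring cells, had 13.8 and 17.2 CPM in pDCs and 26.4 and 22.5 CPM in cDCs. Its values did not overlap, and its log2 fold of -0.66 ± 0.27 (adjusted p = 0.109 by edgeR) became -0.82 without pDC replicate 2. Il7r had a locus log2 fold of 0.34 ± 0.20 and Il13ra1, an IL-13 receptor chain that also pairs with the IL-4 receptor, -0.13 ± 0.18. Without pDC replicate 2 those were 0.49 and -0.37.

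The alpha chains for IL-3 and IL-5 differed in their outcome. Il5ra, the IL-5 receptor alpha chain, had a locus sum of 13.5 and 14.6 CPM in pDCs and 38.1 and 32.6 CPM in cDCs. Both pDC libraries lay below both cDC libraries, with a log2 fold of -1.33 ± 0.25 (2.52-fold higher in cDCs, adjusted p = 0.00266 by edgeR), lost without cDC replicate 1 (-1.22). Of its 2 sites, the one inside the gene at chr6:106729751-106730010, 19.2 kb after the start, was called, with 15 and 11 counts in pDCs, 78 and 69 in cDCs and 0 in the input. PU.1 was above input there in both cell types, and the site log2 fold was -1.66 ± 0.30 (adjusted p = 0.00467 by edgeR), lost without cDC replicate 1 (-1.55).

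Il3ra, the IL-3 receptor alpha chain, had 213 and 141 CPM in pDCs and 193 and 167 CPM in cDCs. The 2 cDC values lay between the pDC values, and the log2 fold was -0.02 ± 0.17 (adjusted p = 0.949 by edgeR). Its direction depended on which pDC library was kept: it was -0.35 without pDC replicate 1 and 0.24 without pDC replicate 2. None of the 9 Il3ra sites was called by edgeR or by DESeq2, and 0 had an unadjusted p below 0.05. Among all sites edgeR called 14.6% and DESeq2 12.9%.

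The gp130 family held the 2 highest sites of the receptor genes. It had no called locus among 3 tested, by edgeR or by DESeq2 (1, Lifr, had an unadjusted p below 0.05). By edgeR 16.5% of all loci were called. The highest site, chr3:89911101-89911710, lay inside Il6ra, the IL-6 receptor alpha chain, 1.79 kb after the start. Its strongest window had 342 and 220 counts in pDCs, 427 and 460 in cDCs and 3 in the input. Scaled, it had 45.1 and 35.4 CPM in pDCs and 39.1 and 39.7 CPM in cDCs, the cDC values lying between the pDC values, and a log2 fold of 0.07 ± 0.17. By mean CPM of its strongest window it stood at percentile 99.9 of all sites. The other lay 5.35 kb outside the span of Lifr, the receptor chain for leukaemia inhibitory factor, at chr15:7085051-7085460, with 50.5 and 44.4 CPM in pDCs, 28.8 and 29.3 CPM in cDCs and 1 input count. Both pDC libraries were higher, with a log2 fold of 0.66 ± 0.17 (adjusted p = 0.0221 by edgeR), lost without cDC replicate 1 (0.63) or cDC replicate 2 (0.69).

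Locus sums in the gp130 family were close in the 2 cell types. Lifr had 387 and 375 CPM in pDCs and 311 and 313 CPM in cDCs. Those did not overlap, but the log2 fold of 0.29 ± 0.11 did not pass the test (adjusted p = 0.0777 by edgeR). It was 0.26 without pDC replicate 1 and 0.31 without pDC replicate 2. Il6ra had 371 and 359 CPM in pDCs and 321 and 331 CPM in cDCs (0.16 ± 0.11, adjusted p = 0.340 by edgeR). Il6st, which encodes gp130 itself, had 63.6 and 69.3 CPM in pDCs and 67.8 and 70.5 CPM in cDCs, interleaved values (log2 fold -0.06 ± 0.16). Its highest site, chr13:112510451-112510810, was 3.79 kb outside the span with 12.1 and 15.0 CPM in pDCs and 14.5 and 15.6 CPM in cDCs. The uncalled Lifr site chr15:7113951-7114260 likewise interleaved, at 15.4 and 13.4 CPM in pDCs and 15.9 and 13.4 CPM in cDCs.

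Of the IL-17 receptors, none of 3 tested loci was called by edgeR or by DESeq2, and 0 had an unadjusted p below 0.05. By edgeR 16.5% of all loci were called. Il17ra, the chain that the IL-17 receptors share, had 198 and 177 CPM in pDCs and 158 and 168 CPM in cDCs. Its log2 fold was 0.21 ± 0.12 (adjusted p = 0.296 by edgeR), and without pDC replicate 2 it was 0.28. Its highest site, inside the gene at chr6:120473501-120473860, had 22.3 and 13.4 CPM in pDCs, 8.60 and 10.6 CPM in cDCs and 0 input counts. Both pDC libraries were above the cDC libraries, with a log2 fold of 0.90 ± 0.24 (adjusted p = 0.0259 by edgeR), lost without cDC replicate 1 (0.77) or cDC replicate 2 (1.04). Il17rc and Il17re, chains for IL-17A, IL-17F and IL-17C signalling, share 4 sites because their loci overlap, and their log2 folds were -0.09 ± 0.25 and -0.02 ± 0.23.

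None of the 3 IL-10 family loci was called by edgeR or by DESeq2 either, and 0 had an unadjusted p below 0.05. The share of all loci called by edgeR was 16.5%. Il10ra, the IL-10 receptor's ligand-binding chain, had 219 and 197 CPM in pDCs and 184 and 185 CPM in cDCs, and 45.8% of its windows lay inside other genes. Those values did not overlap, with a log2 fold of 0.17 ± 0.12 (adjusted p = 0.371 by edgeR), and 0.25 without pDC replicate 2. Il10rb, the accessory chain shared by several receptors of the family, had only 4 windows, with 29 and 22 counts in pDCs, 52 and 51 in cDCs and 6 in the input (log2 fold -0.31 ± 0.42). Il20rb, a chain of the IL-20 receptors, had 104 and 69 counts in pDCs, 125 in each cDC library and 13 in the input (0.16 ± 0.31).

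The 4 interferon receptor loci gave 1 call in each direction, where 9.54% of all loci were higher and 6.97% lower in pDCs. Ifnar2, the ligand-binding chain of the type I interferon receptor, had 164 and 160 CPM in pDCs and 119 and 120 CPM in cDCs. The replicates were close and the cell types did not overlap, with a log2 fold of 0.44 ± 0.13 (adjusted p = 0.0278 by edgeR), lost without cDC replicate 1 (0.43) or cDC replicate 2 (0.44). Of those locus sums, 154 and 137 CPM in pDCs and 97.5 and 94.9 CPM in cDCs lay in 1 site 5.93 kb before the start, chr16:91366701-91367510. It had 25.6 and 21.2 CPM at its strongest window in pDCs, 15.3 and 13.6 CPM in cDCs and 0 input counts. Its log2 fold was 0.60 ± 0.18 (adjusted p = 0.0397 by edgeR), lost without cDC replicate 1 (0.61) or cDC replicate 2 (0.58), and DESeq2 did not call it (adjusted p = 0.0501 by DESeq2). Restricted to the Ifnar2 span, which leaves that site out, the log2 fold was -0.58 and not called, and with scaling on the input-rich windows the locus was at -0.08, or 0.38 above the median of all loci.

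Ifnar1, the other chain of the type I interferon receptor, had 55.0 and 37.3 CPM in pDCs and 39.1 and 48.3 CPM in cDCs. The values interleaved, with a log2 fold of 0.08 ± 0.22 (adjusted p = 0.855 by edgeR), and its highest site was the promoter site printed above.

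Ifngr1 and Ifngr2, the ligand-binding and signalling chains of the interferon-gamma receptor, each held sites lower in pDCs. The Ifngr1 locus had 76.5 and 88.6 CPM in pDCs and 144 and 117 CPM in cDCs, which did not overlap. The log2 fold was -0.66 ± 0.15 (1.58-fold higher in cDCs, adjusted p = 0.00978 by edgeR), lost without cDC replicate 1 (-0.51). A site 4.32 kb beyond the gene, chr10:19614401-19614660, had 6 and 16 counts at its strongest window in pDCs, 103 and 69 in cDCs and 4 in the input. The site was above input in cDCs and not in pDCs, with a log2 fold of -2.31 ± 0.45 (4.97-fold higher in cDCs, adjusted p = 0.00624 by edgeR), and it was called under all 15 alternatives, at -1.68 without pDC replicate 1 and -3.36 without pDC replicate 2. It lies in the locus of Il22ra2, the soluble IL-22 binding protein, as well. Restricted to the Ifngr1 span, the locus gave -0.46 and was not called.

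At Ifngr2 the locus was not called, with 197 and 204 CPM in pDCs and 244 and 228 CPM in cDCs (log2 fold -0.23 ± 0.12, adjusted p = 0.192 by edgeR), although the span alone gave -0.92 and was called. Without pDC replicate 2 the locus log2 fold was -0.26. The site inside the gene at chr16:91562001-91562410, 15.1 kb after the start, had 18 and 28 counts in pDCs, 105 and 101 in cDCs and 0 in the input. Both cell types were above input, and the scaled values, 2.37 and 4.50 CPM in pDCs against 9.60 and 8.73 CPM in cDCs, did not overlap. The log2 fold was -1.49 ± 0.27 (adjusted p = 0.00443 by edgeR), called under all 15 alternatives. An upstream site 5.75 kb before the start, chr16:91541151-91541410, was chosen after its values were seen and had 1.19 and 2.25 CPM in pDCs and 4.57 and 4.15 CPM in cDCs. Its log2 fold was -1.23 ± 0.36 (adjusted p = 0.0394 by edgeR), lost without pDC replicate 1 (-0.87), cDC replicate 1 (-1.19) or cDC replicate 2 (-1.28). The highest Ifngr2 site, chr16:91538001-91538460, had 16.1 and 13.7 CPM in pDCs and 16.5 and 11.1 CPM in cDCs, which interleaved (0.10 ± 0.23).

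The rest of the cytokine receptor pathway was examined through 2 lists of other genes. Of 23 further cytokine receptor genes, 20 were tested, 1 was higher and 2 were lower in pDCs (15.0%, where 16.5% of all loci were called), with a median log2 fold of 0.15 against 0.05 for all loci. Csf2rb2, a mouse-specific beta chain for IL-3 signalling, had 149 and 131 CPM in pDCs and 99.1 and 109 CPM in cDCs (0.43 ± 0.14, adjusted p = 0.0460 by edgeR), but it is a close copy of Csf2rb, so its reads may be split, and the call was lost without cDC replicate 1 (0.36) or cDC replicate 2 (0.50). Il22ra2 had 2.90 and 9.33 CPM in pDCs and 36.5 and 23.4 CPM in cDCs (-2.32 ± 0.42, adjusted p = 0.00230 by edgeR), through the site it shares with the Ifngr1 locus. The Il22ra2 locus was at -1.68 without pDC replicate 1 and -3.36 without pDC replicate 2. With flanks of 50 kb it was at -0.55 and called. Prlr, the prolactin receptor, had 0.923 and 2.57 CPM in pDCs and 8.51 and 6.13 CPM in cDCs (-2.09 ± 0.51, adjusted p = 0.0121 by edgeR), lost without cDC replicate 1 (-1.84), and it was at -1.50 without pDC replicate 1 and -2.97 without pDC replicate 2. With a library left out, the number of called loci in this list moved in the same direction as the share of all loci called.

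Of 33 genes that act below the receptors, all were tested, 4 were higher and 2 lower in pDCs (18.2%, where 16.5% of all loci were called), with a median log2 fold of 0.07 against 0.05 for all loci. Both shares are near that of all loci, and DESeq2 called neither Csf2rb2 nor Stat5b nor Usp18. Stat5a and Stat5b, the STATs used by many common gamma and common beta chain receptors, are neighbours that share windows. Stat5a had 80.7 and 58.6 CPM in pDCs and 34.8 and 46.9 CPM in cDCs (0.77 ± 0.21, adjusted p = 0.0218 by edgeR), lost without cDC replicate 1 (0.56) and, with windows inside other genes left out, 0.34 and not called. Stat5b had 199 and 180 CPM in pDCs and 139 and 148 CPM in cDCs (0.40 ± 0.13, adjusted p = 0.0412 by edgeR), lost without cDC replicate 1 (0.35) or cDC replicate 2 (0.45). The tyrosine phosphatase gene Ptpn6 had 329 and 248 CPM in pDCs and 206 and 213 CPM in cDCs (0.46 ± 0.13, adjusted p = 0.0299 by edgeR), lost without cDC replicate 1 (0.43) or cDC replicate 2 (0.49). Usp18, a brake on interferon receptor signalling, had 93.4 and 88.8 CPM in pDCs and 68.1 and 62.3 CPM in cDCs (0.48 ± 0.15, adjusted p = 0.0447 by edgeR), lost without cDC replicate 1 (0.54) or cDC replicate 2 (0.42). Cish, a suppressor of cytokine signalling, had 5.41 and 5.31 CPM in pDCs and 14.3 and 10.1 CPM in cDCs (-1.18 ± 0.36, adjusted p = 0.0352 by edgeR), lost without cDC replicate 1 (-0.92) or cDC replicate 2 (-1.41). The phosphatase gene Ptpn11 had 62.4 and 69.5 CPM in pDCs and 103 and 99.2 CPM in cDCs (-0.62 ± 0.15, adjusted p = 0.0130 by edgeR), lost without cDC replicate 1 (-0.60) or cDC replicate 2 (-0.64). For this list too, the number of called loci moved with the share of all loci called when a library was left out.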

How the data were processed

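The authors deposited raw read counts per window for 4 PU.1 ChIP-seq libraries and 1 input, and these were analysed as they stand. The submitters' processing notes name Subread 1.4.4 and mm10. How Subread was used, how reads were extended and how windows were chosen is not given in the sources used here. Per the labels' protocols, chromatin was crosslinked with paraformaldehyde, sonicated and precipitated with the T-20 antibody. The smallest sum of a listed window over the 5 libraries was 33 counts, so weaker windows are not analysed here. Depth is unknown.

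Windows were kept with filterByExpr of edgeR 4.0.16 at a minimum count of 10 (286435 kept, 43561 removed; R 4.3.3, limma 3.58.1). Counts were summed over loci (RefSeq GRCm38.p6 spans with 10 kb on each side) and over sites (kept windows up to 100 bp apart, split at 5000 bp). The test between 2 pDC and 2 cDC libraries was glmQLFTest, fitted by cell type alone with TMM factors from kept windows, and p-values were adjusted by Benjamini and Hochberg's method over all loci or all sites. CPM are counts over TMM-adjusted library sizes, and a standard error (SE) is that implied by the F statistic. The biological coefficient of variation was 0.154 for loci and 0.241 for sites. For the input, all 5 libraries were fitted with library sizes set to totals over windows; a site counted as above input when its fold reached 2 and its adjusted p was below 0.05. The scripts were tested on simulated data. An exact permutation test of 2 against 2 libraries cannot go below 0.333, so none is given.

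Alternatives were 2 other scalings, DESeq2 1.42.0, other filters and locus or site definitions, a minimum fold, a replicate block and leaving out each library. Members and lists were chosen with earlier results of these data known. Named were all called loci, the site of highest mean CPM of a locus, the 16 called sites of smallest adjusted p (at most 2 a gene), the 6 highest uncalled sites and the called loci of the 2 pathway lists. Other sites are stated as chosen after their values were seen.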

Additional observations from a re-analysis of the deposited data

How the results depend on the processing

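Each called receptor locus lost its call under at least 1 alternative, and 5 of 22 called sites kept theirs under every alternative with a value. Of these 5, the Il23r and Il2rb sites had no value with windows of a mean of at least 30 counts. Most called loci and most called sites lost their calls with a single library left out. A call kept that way does not measure the spread within both cell types. Receptor loci called were 8 in the main comparison (16.5% of all loci), 5 with library-size scaling, 0 with scaling on the input-rich windows (0.700%), 2 at a minimum fold of 1.5 (3.07%), and 2 to 19 with 1 library left out (4.68% to 37.6%). Receptor sites called were 22 (14.6% of all sites), against 14 with scaling on the input-rich windows (9.21%), 11 at a minimum fold of 1.5 (6.41%), and 11 to 52 with 1 library left out (5.36% to 32.5%). Further cytokine receptor loci called were 3, against 1 at the minimum fold and 1 to 10 with 1 library left out. Signalling loci called were 6, against 3 with library-size scaling, 0 with scaling on the input-rich windows and 0 at the minimum fold (1 with an unadjusted p below 0.05 under each), 3 with flanks of 50 kb, and 0 to 15 with 1 library left out. Sites above input were 104, against 23 with totals outside the input-rich windows, and no share of all sites is given beside these counts. The differences between replicates 1 and 2 in pDCs and in cDCs had a correlation of -0.00679 over loci. That value cannot show whether libraries of the same number were made together. With a replicate block, 8 receptor loci, 4 further receptor loci and 6 signalling loci were called, where 18.8% of all loci were. At sites 24 were called, where 15.4% of all sites were. DESeq2 called 8 receptor loci and 18 sites, where it called 15.8% of all loci and 12.9% of all sites. Sign changes of a called value were: with scaling on the input-rich windows, Ifnar2 at -0.080, Csf2rb2 at -0.073, Stat5b at -0.11, Ptpn6 at -0.0091 and Usp18 at -0.029; with the span alone, Ifnar2 at -0.58; with flanks of 50 kb, Prlr at 0.084 and Cish at 0.32; with joining at 250 bp, the Il1r2 site outside the gene at 0.062. Il3ra, not called with all libraries, was at -0.35 without pDC replicate 1 and at 0.24 without pDC replicate 2. The cause was not tested. Low counts limit the weaker sites, and the single input limits every statement against it.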
